A study of Mus musculus with 4 samples.

Results

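AGO2-CLASH chimeric reads with a long sense miRNA segment and an antisense target segment were examined in mouse mesangial cells (MMC). The reads were chosen by measured values of the deposited alignments: the miRNA aligned in its own direction over 16 nt or more, and the start position on the listed transcript was above the end position. Of 29067 distinct chimeric reads in 4 libraries, 707 met the rule, and they were sequenced 930 times among 36318 chimeric reads (2.56%). MMC lie between the capillaries of the glomerulus, the filter of the kidney, and can contract. Primary cultures came from C57BL/6J mice that were either wild type (WT) or miR-379 knockout (miR-379KO), a line made with the CRISPR-Cas9 nickase, and no treatment of the cultures is described. All were grown in RPMI medium with serum. Every library was made from RNA bound by AGO2 after cross-linking with UV at 50 J/m2, with T4 RNA ligase joining RNAs held together in the complex. There were 2 libraries (A and B) of each genotype, and the labels do not say which mice, or how many, were behind a culture. The study's diabetes experiment, to which its text links the mesangial cells used for CLASH, began with males at 10 weeks of age, while the labels do not mention any treatment. The p-values below measure the spread between these libraries, which may be technical.

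In the AGO2 complex, a miRNA guides AGO2 to target RNAs mainly through its seed, the bases near its 5′ end, which pair with a complementary stretch of the target. Ligation before sequencing can join the miRNA to the RNA lying next to it, so that a chimeric read carries a miRNA segment and a target segment. A target in antisense to its listed transcript can be RNA from the opposite strand or RNA from elsewhere that resembles it. Ribosomal RNA, which makes up most of the RNA of a cell, is a frequent component of such libraries.

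The sequences of the 4 miRNAs listed with the most of these reads, and of let-7c-5p and miR-770-5p, are shown because the results turn on how the read differs from the miRNA. First come the mature miRNAs as given in the deposited alignments, with the seed (bases 2 to 8) in capitals.
miR-149-3p: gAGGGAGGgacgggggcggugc
miR-2137: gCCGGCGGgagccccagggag
miR-1195: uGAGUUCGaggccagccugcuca
miR-5126: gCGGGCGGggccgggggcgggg
let-7c-5p: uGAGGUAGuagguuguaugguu
miR-770-5p: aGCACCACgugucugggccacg
Next come the commonest segments read for the same miRNAs, with bases that differ from the miRNA in capitals.
miR-149-3p segment: gagggaCggCcgggggc
miR-2137 segment: gccggcgggagccccGgggag
miR-1195 segment: tgagttcCaggccagcc
miR-5126 segment: gcgggcggggccggggg
let-7c-5p segment: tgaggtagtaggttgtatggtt
miR-770-5p segment: ccacgtgtctgggccac
With positions counted from 1 at the miRNA's 5′ end, and the miRNA base first, the miR-149-3p segment carries G7C and A10C and was held by 299 of the 304 reads of this miRNA. The miR-2137 segment carries A16G and was held by 112 of 121 reads. The miR-1195 segment carries G8C and was held by 33 of 85 reads, and the 85 reads showed 28 different segments. The segments of miR-5126 (32 of 55 reads), let-7c-5p (17 of 27 reads) and miR-770-5p (9 of 10 reads) carry no difference. Over all 707 distinct reads, 26.9% held a miRNA segment without a difference, against 75.6% of the 7477 distinct reads with a sense miRNA of the same length and a sense target. The share was lower in each of the 4 libraries, with differences of -55.3 to -43.5 percentage points (mean -47.3 ± 5.41, SD, n = 4; exact sign permutation over libraries, two-sided p = 0.12, or 1 in 8, which is the smallest that 4 libraries allow).

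WT A and B held 340 of 16324 and 233 of 7192 chimeric reads, and miR-379KO A and B held 190 of 6326 and 167 of 6476. The totals count chimeric reads only and are not the sequencing depth. Per 10000 chimeric reads the share was 208.3 (95% exact binomial interval 187 to 231) and 324 (284 to 368) in WT A and B, and 300.3 (259.7 to 345) and 258 (221 to 299) in miR-379KO A and B. The WT libraries were the lowest and the highest, and both miR-379KO libraries lay between them. The means were 266 ± 81.8 per 10000 in WT and 279 ± 30.03 in miR-379KO (SD, n = 2 each), and the genotypes did not differ beyond the spread (exact permutation test, two-sided p = 1, smallest possible 0.333). Reads summed by genotype gave 244 per 10000 for WT against 279 for miR-379KO. For these sums a two-sided Fisher's exact test gave p = 0.0438, a contrast of the sequenced libraries rather than of genotypes. Fewer cells of a kind and less RNA per cell cannot be told apart in such bulk samples. Without WT A the WT share was 44.9 per 10000 above miR-379KO, and without miR-379KO A it was 8.25 above. Without reads of the 18S genes it was 18.5 above, so the direction depends on those libraries and on the ribosomal reads. The limit that a count of 0 allows, set at 3 reads, was 1.84 per 10000 for the largest library, WT A, and 4.74 for the smallest, miR-379KO A. Without molecular identifiers, reads are not independent molecules, and these intervals and limits describe counting error alone.

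Of the distinct reads, 564 (79.8%) were sequenced a single time and the highest count was 10. The miRNA was unambiguous in 696 reads, while 398 reads were listed with 1 gene, 290 with 2 and 19 with more, up to 17 genes. At the edge of the rule, 178 distinct reads had a sense miRNA alignment of 15 nt with an antisense target and 83 had one of 16 nt. The commonest length was 17 nt, with 290 distinct reads, and a second mode of 129 reads lay at 21 nt.

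The reads named 129 miRNAs, but few carried most of them. miR-149-3p, the arm of the miR-149 hairpin that is usually the passenger strand, had 110 and 79 reads in WT A and B, and 69 and 46 in miR-379KO A and B. This was 32.4% of the reads (95% exact binomial interval 27.4 to 37.6) and 33.9% (27.9 to 40.4) in WT A and B, and 36.3% (29.5 to 43.6) and 27.5% (20.9 to 35.0) in miR-379KO A and B. It was the most frequent miRNA in every library, and the 4 intervals overlap. miR-2137 followed with 41, 34, 24 and 22 reads in the same order of libraries, or 12.1 to 14.6% of each library.
miR-1195 had 43 reads in WT A and 16, 15 and 11 in the other libraries, which was 12.6% of the reads in WT A and 6.59 to 7.89% in the others. miR-5126 had 14, 17, 12 and 12 reads. Together with these, the 10 miRNAs with the most reads were let-7c-5p (27 reads), let-7b-5p (21), miR-3960 (21), miR-6240 (18), let-7a-5p (16) and miR-1946a (15). miR-706 had as many reads as miR-1946a and was placed after it by name. let-7b-5p had 0 reads in WT A, which allows a share of up to 0.882% there, and 5 in WT B, with 10 and 6 in the miR-379KO libraries. let-7c-5p had 17 of its 27 reads in WT B, and miR-1946a had 14 of 15 in WT, with 10 in WT A.

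**Figure D1:**
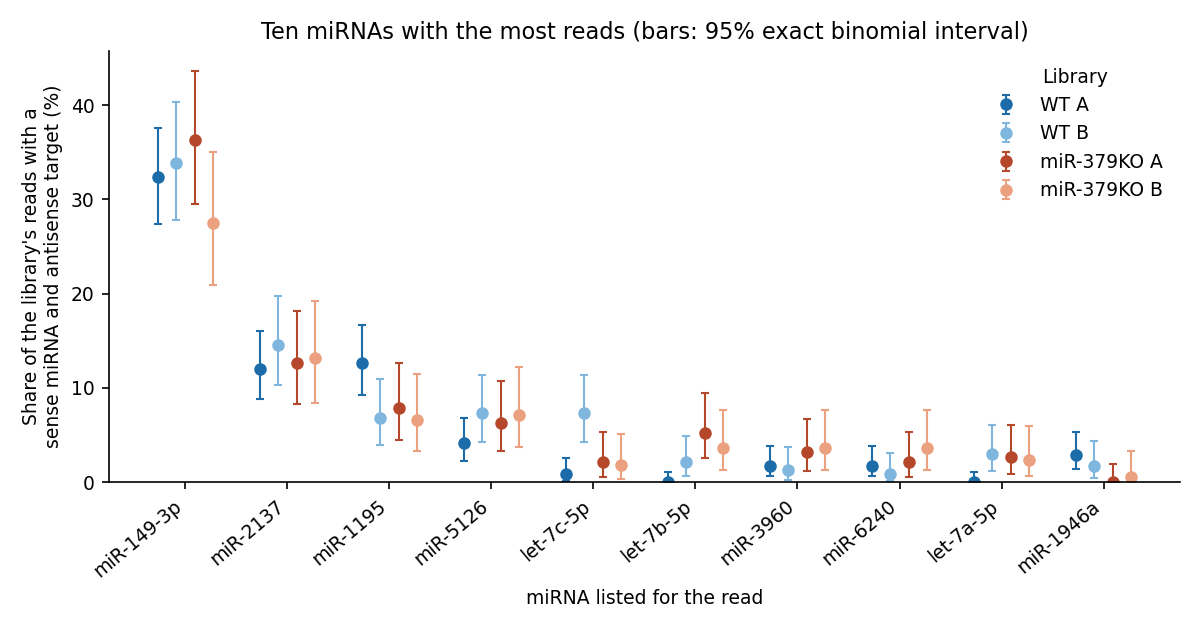
The share of each library's reads of this kind (%, y axis) is plotted for the 10 miRNAs with the most reads (x axis), 1 point per library with its 95% exact binomial interval. miR-149-3p lies between 27.5% and 36.3% in all 4 libraries, miR-2137 between 12.1% and 14.6%, and the remaining miRNAs below 13%.

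Lists of related miRNAs were examined next. let-7 and miR-98, a family that shares the seed GAGGUAG and restrains proliferation, had 77 reads from 7 miRNAs, which was 8.28% of the reads here against 4.19% of all chimeric reads. WT A differed from the other libraries, with 4 reads (1.18% against 1.47%), while the shares were 10.8 to 13.3% against 5.09 to 7.38% in the others. The repeat-rich miR-297, miR-466, miR-467 and miR-669 group, encoded in an intron of Sfmbt2, had 27 reads from 18 miRNAs (2.90% against 1.95%). Of the 27, 18 came from WT A, and without WT A the shares were 1.53% and 1.37%. miRNAs studied in renal fibrosis had 14 reads from 4 of the 26 seen in any chimeric read (1.51% against 2.09%), 10 of them from miR-214-3p. The miR-379 cluster had 2 reads from 2 of the 49 of its miRNAs seen in any chimeric read (0.215% against 1.91%), with 1 read in each miR-379KO library and 0 in WT A and B. miR-379 itself had 0 reads here and 4 among all chimeric reads.

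Among target genes, a single one was listed for most of the reads. Rn18s-rs5, an annotated copy of the 18S ribosomal RNA, was listed for 714 of the 930 reads (76.8%, 95% exact binomial interval 73.9 to 79.5). It had 233 reads (68.5%) and 185 (79.4%) in WT A and B, and 160 (84.2%) and 136 (81.4%) in miR-379KO A and B. WT A was the lowest, and its interval (63.3 to 73.4%) lies below those of WT B (73.6 to 84.4%) and of both miR-379KO libraries. AY036118, which overlaps it, was listed for 396 reads, and every read of AY036118 was also among those 714.
The next gene was Dgka, encoding diacylglycerol kinase alpha, with 21, 0, 8 and 2 reads, from 11 distinct reads that all named miR-1195. Xrcc3, a DNA repair gene, had 5 reads. 2810474O19Rik, Drc3, Gm37677, Hip1 and Pih1d2 had 4 reads each and Clic1 had 3. The lists of mitochondrial genes, ribosomal protein genes, matrix genes and markers of mesangial, podocyte, endothelial, tubule and macrophage cells had 0 reads here. Among all chimeric reads, matrix genes had 1089 reads and mesangial markers 142, from 7 of the 10 genes, podocyte markers had 5, and the endothelial, tubule and macrophage markers 0. Mitochondrial genes had 238 of all chimeric reads (0.655%) and ribosomal protein genes 234 (0.644%).

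The label antisense did not hold for the ribosomal reads when the genome was consulted. On chromosome 17 of GRCm38, RefSeq places Rn18s-rs5 on the plus strand from 39846354 to 39848202. The transcript that the deposited alignments use for this gene lies on the minus strand, as GENCODE vM21 gives it under the name CT010467.1 (gene from 39846353 to 39848827), and AY036118 is a minus-strand lincRNA there, from 39847113 to 39848035. The middle of the target segment (30 nt, without mismatch) was found in this locus for 459 distinct reads, and all 459 matched the plus strand. The reads thus hold the strand on which RefSeq annotates the 18S sequence, and antisense refers to the orientation of the listed gene models.
The same held outside the reads chosen here. Rn18s-rs5 was listed in antisense for 6992 of 6993 chimeric reads of any class and AY036118 for 2165 of 2166. Gm42418, a plus-strand lincRNA of GENCODE at 39846958 to 39848788, was listed in antisense for 0 of 4018, and Gm26917, on the plus strand beside it, for 0 of 1598. Of the 51 distinct reads listed with a sense target as well, 46 named Gm42418. All genes other than these 4 were listed in antisense for 6084 of 43832 (13.9%), counted the same way. Restricted to a sense miRNA of 16 nt or more, their share was 1.78%.

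Positions below are bases of the 18S sequence, counted from 1 at chr17:39846354 on the plus strand. The target segments of miR-149-3p, miR-2137, let-7 and miR-5126 lay mostly in different stretches of it. For miR-149-3p, 203 distinct reads (303 reads) were placed, their last base was most often 1490 (114 reads, 37.6%) and their first base most often 1415 (60 reads, 19.8%). Most of them shared a core, since bases 1452 to 1469 were covered by 196 of the 203. For miR-2137 the segments reached at most to base 368, all 99 covered bases 271 to 291, and 50 of 121 reads ended at base 293. let-7 segments covered bases 509 to 525 in 46 of 54 distinct reads, and those of miR-5126 covered bases 730 to 741 in 33 of 43. miR-6240, with 14 distinct reads, most often ended at base 876 (9 of 16 reads). The 18S targets had a median length of 81 nt (23 to 158). Over all reads of the kind the median target length was 68.0 to 76.0 nt by library, against a mean of 56.0 nt in reads with a sense target, and it was longer in all 4 libraries by 15.5 ± 1.73 nt (SD, n = 4; exact sign permutation, two-sided p = 0.12).

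**Figure D2:**
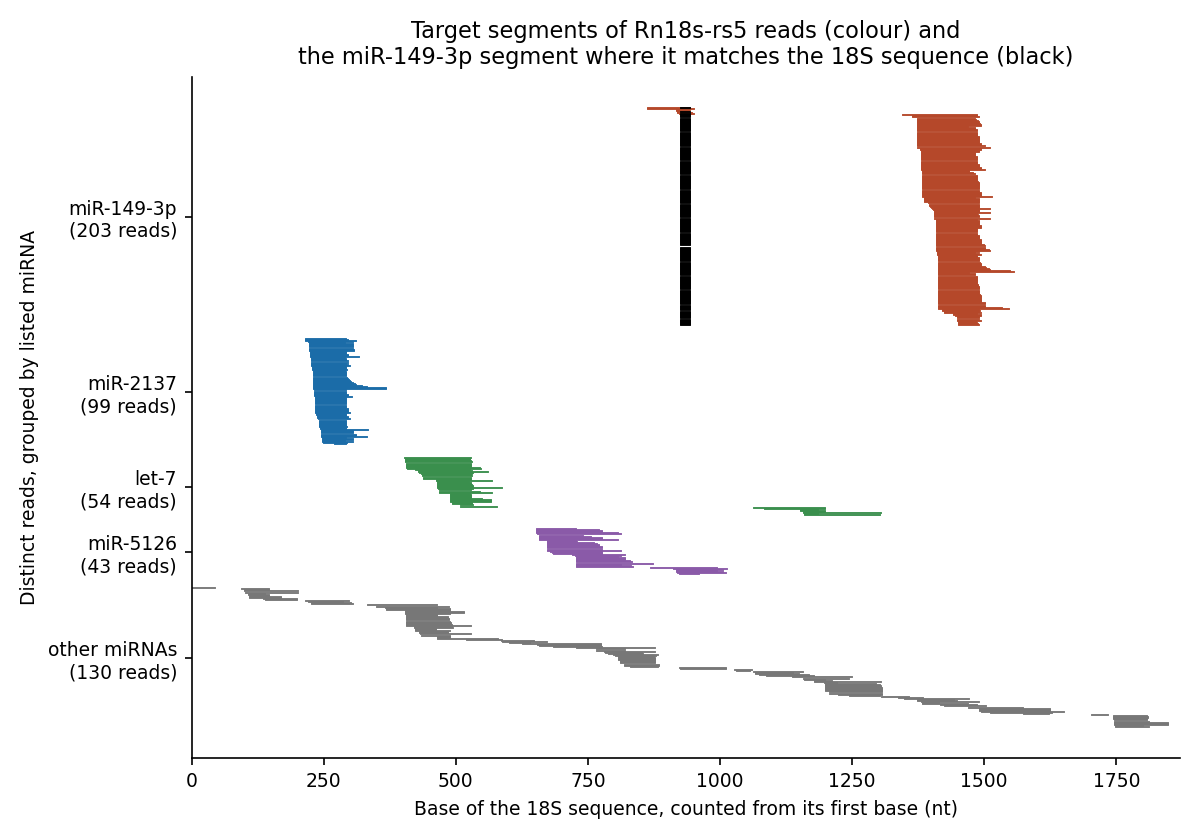
Each line is the target segment of 1 distinct Rn18s-rs5 read, drawn from its first to its last base of the 18S sequence (x axis, nt) and grouped by miRNA (y axis), and black marks are the miR-149-3p segments where they match the 18S sequence. 196 of 203 miR-149-3p targets cover bases 1452 to 1469 while its own segment sits at bases 927 to 943, and most targets of miR-2137, let-7 and miR-5126 occupy other stretches.

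The miR-149-3p segment itself is 18S sequence. Its 17 nt, with both differences from the miRNA, match chr17:39847280-39847296 on the plus strand, which are bases 927 to 943 of 18S, and also a place on chromosome 6 (3201369 to 3201385). The stretch of the genome from 39847274 to 39847303 is shown with the segment in capitals, beside a stretch of read that was sequenced 55 times.
18S bases 921 to 950: gattaaGAGGGACGGCCGGGGGCattcgta
miR-149-3p read: aaGAGGGACGGCCGGGGGCattcgt
This exact match to the locus was found for all but 5 of the 204 distinct reads of miR-149-3p, 299 of 304 reads, and for no other miRNA of these reads. In 189 of them (94.97%) the miRNA segment came first in the read, and in 187 of those the 18S order was the same, with 403 to 508 nt of 18S skipped between the segments. In the 10 reads with the target first, none followed the 18S order. No base lay between the segments in the median read.

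In 184 of the 930 reads (19.8%), the miRNA segment matched an annotated miRNA gene without mismatch. In 299 (32.2%) it matched the 18S locus, in 276 (29.7%) only other places of the genome, and in 171 (18.4%) no place of the assembly. The other places included 3 reads of miR-6236 whose segment lies in an exon of Mir6236 in GENCODE vM21, so the miRNA gene class leaves these out. Among the distinct reads the miRNA gene share was 14.02% and 23.1% in WT A and B, and 25.2% and 29.5% in miR-379KO A and B, against 56.4 to 67.6% in the reads with a sense target. WT A also had the highest share of segments that matched elsewhere only (40.2%, against 23.7 to 26.9% in the other libraries). Among the miRNAs named so far, all reads of let-7c-5p, let-7b-5p, let-7a-5p and miR-214-3p matched a miRNA gene, as did 35 of 55 of miR-5126 and 8 of 18 of miR-6240. miR-2137 had no match in all 121 reads and miR-1195 matched elsewhere only in all 85.

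**Figure D3:**
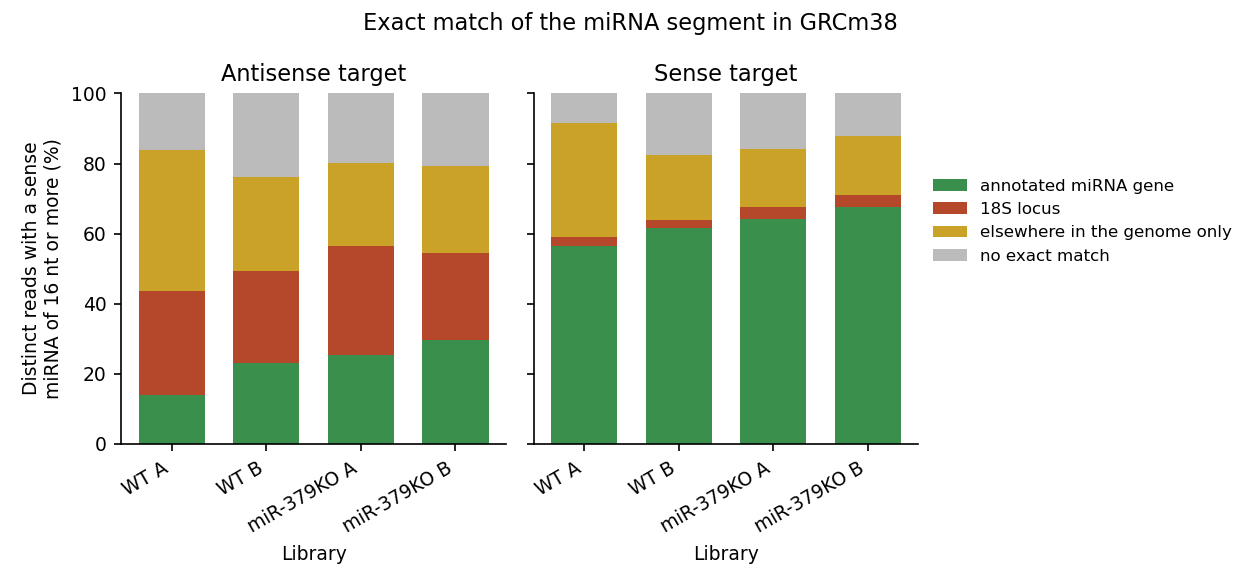
Bars show, for each library (x axis), the percentage of distinct reads (y axis) whose miRNA segment matches an annotated miRNA gene, the 18S locus, other places only, or no place in GRCm38, for antisense targets (left) and sense targets (right). The miRNA gene share is 14.02 to 29.5% on the left and 56.4 to 67.6% on the right, and the 18S locus share is 24.8 to 31.3% against 2.29 to 3.47%.

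miR-770-5p illustrates a segment with a second place. Its commonest segment lies in Mir770 at chr12:109563714-109563730, inside an exon of the lncRNA Meg3, and the match there ended with the segment. The same 17 nt lie at chr16:20684263-20684279, in Snord66 inside Eif4g1, where a median of 44 nt of the neighbouring read bases matched as well (9 distinct reads). Snord66 is a C/D box small nucleolar RNA, a class that guides methylation of ribosomal RNA. One stretch, sequenced 8 times, is shown with the segment in capitals.
miR-770-5p read: tcagtgCCACGTGTCTGGGCCACtgagac
The reads (6 and 0 in WT A and B, and 1 and 3 in miR-379KO A and B) all carried 18S as target, 7 of 10 from base 1200 and 6 of 10 to base 1306. The search asked for miRNA segments with 10 nt or more of matching neighbours in a snoRNA or snRNA gene of GENCODE vM21. Among the places looked up, it found no gene other than Snord66. Not every place in the genome that matched a segment was looked up, so other such genes may have been missed.

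The reads listed with other genes only were 168 distinct reads, with 107 and 48 reads in WT A and B, and 30 and 31 in miR-379KO A and B. For 82 of the 168 (48.8%), a single stretch of the genome matched the miRNA segment together with 10 nt or more of the target segment, outside miRNA genes, against 0 of the 539 ribosomal reads. Per library this was 18.5% of all reads of the kind in WT A and 8.38 to 9.01% in the others. Among the 10 most frequent miRNAs it held for 52 of 85 reads of miR-1195, 5 of 15 of miR-1946a and 0 of the reads of the other 8. miR-1195 resembles B1 repeats, which are spread through the mouse genome, and its commonest segment was found at 5164 places.
Dgka shows the pattern. In 10 of its 11 distinct reads (30 of 31 reads) the target and the miR-1195 segment lay in a single genomic stretch, always with the target first, and the middle of the target was at 1 place of the genome for 0 of the 11. The junction, held by 28 reads of miR-1195, is shown with the miRNA segment in capitals.
miR-1195 read: agttcaTGAGTTCCAGGCCAGCCaaggct
The middle of the target was found in GRCm38 for 162 of the 168 reads. It occurred at 1 place for 73, at 2 to 10 places for 41 and at over 10 for 48, and 84.6% of the 162 lay mostly in soft-masked (repeat) sequence. Of the 73 with 1 place, 60 lay in a GENCODE vM21 gene on the strand of the read, 4 of them in an exon, 9 in a gene on the other strand only and 4 in no gene. The listed gene was found by name at that place for 9 of the 73, each time on the other strand. Only the alphabetically first listed gene of a read was looked up, and a gene renamed since GENCODE vM13 would be missed.

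Target segments recurred across genes. Sharing 20 nt without mismatch with a segment of another gene was found for 464 of 930 reads (49.9%), namely 47.9% and 55.4% in WT A and B, and 46.3% and 50.3% in miR-379KO A and B. A segment listed with more than 1 gene counted as shared even within a single read. Only 45 of these 464 were reads of other genes (20.8% of the reads with other genes only). The remainder were ribosomal reads, and Rn18s-rs5 and AY036118 are overlapping annotations of 1 locus under which the same read can be listed. Among reads with a single miRNA and a single gene, a set that leaves out every read of AY036118, 1.63% recurred. The largest group of linked segments, with 313 reads, named Rn18s-rs5 and AY036118 only. Over all reads, segments linked by a shared 20 nt formed 136 groups, and 25 of these named more than 1 gene. The group with the most genes named 25, found in 13 distinct reads from all 4 libraries and 4 miRNAs, including Adat1, Bcl2l13, Clic1, Dynll1 and Senp1. Its most widely listed 20 nt, in capitals, was listed with 16 genes.
25-gene group: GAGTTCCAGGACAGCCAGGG
Groups of 17 genes came from a single read each of miR-1195 and miR-1946a, a group of 9 from 2 reads of miR-29a-5p, and a group of 6 genes from 2 reads of miR-1195 and miR-706.

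The miRNA came before the target in 451 of 707 distinct reads (63.8%, 95% exact binomial interval 60.1 to 67.3). The share was 62.0% and 60.9% in WT A and B, and 68.7% and 65.8% in miR-379KO A and B, against 51.1%, 50.3%, 48.2% and 50.7% in reads with a sense target. It was higher in all 4 libraries, by 14.3 ± 4.61 percentage points (SD, n = 4; exact sign permutation, two-sided p = 0.12). With the same length limit on both kinds of read the gap was smaller. At 18 nt or more it was 58.3% against 54.7%, higher in 4 of 4 libraries, and at 20 nt or more 63.9% against 61.8%, higher in 3 of 4. The order differed between miRNAs. It was miRNA first in 94.6% of miR-149-3p reads, 75.8% of miR-2137 and all 16 of miR-6240, but in 9.30% of miR-5126 and 28.1% of miR-1195. Without reads whose miRNA segment matches the 18S locus the share was 51.6%. In reads with other genes only it was 45.2%, below all reads with a sense target in 4 of 4 libraries, and without a mismatch in either kind of read it was 46.3% against 55.1% (lower in 3 of 4 libraries), so the direction turned.

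A match to the seed (the reverse complement of miRNA bases 2 to 7) was present in the target segment, as the read holds it, in 134 of 707 distinct reads (19.0%, 16.1 to 22.04). It was 17.7% and 20.5% in WT A and B, and 19.8% and 18.8% in miR-379KO A and B, against 33.8 to 41.0% in reads with a sense target, a difference of -17.9 ± 2.26 percentage points (SD, n = 4; exact sign permutation, two-sided p = 0.12). The deposited pairing was predicted on the listed transcript, which is the read strand for sense targets and the opposite strand here, so the rule bears on this difference. The result moved with the limits set on both kinds of read. At 20 nt or more the match was in 43.2% against 32.6% with a sense target, higher in all 4 libraries, and with a single miRNA and gene it was in 34.5% against 38.6%. For the whole seed, bases 2 to 8, it was in 4.95% against 28.1%, and it was lower in all 4 libraries at 18 nt or more, at 20 nt or more, without a mismatch and with a single miRNA and gene as well. For bases 2 to 7, miR-2137 gave 96 of the 134 and miR-5126 gave 33. In the reads of miR-149-3p, miR-3960, miR-6240 and the let-7 miRNAs there was none, and in reads with other genes only it was 2.38%.
The reverse complement of the target segment, which is the strand of the listed transcript, held the match more often. It did so in 309 reads (43.7%), with 36.2% and 44.9% in WT A and B, and 53.4% and 47.7% in miR-379KO A and B. The read strand minus its reverse complement was -26.3 ± 6.46 percentage points and had the same direction in all 4 libraries (exact sign permutation, two-sided p = 0.12). In reads with a sense target the reverse complement held it in 0.909%. The pairing site in the deposited alignments was found on the read strand for 0 of 707 reads and in the reverse complement for 527, against 4987 and 21 of 7477 with a sense target. The rule sets this strand, since reads were chosen for lying in antisense to the listed transcript with which the deposited pairing was predicted, so these counts are a description. How far that prediction also bears on the seed matches, on either strand and on the difference between strands, was not tested.

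**Figure D4:**
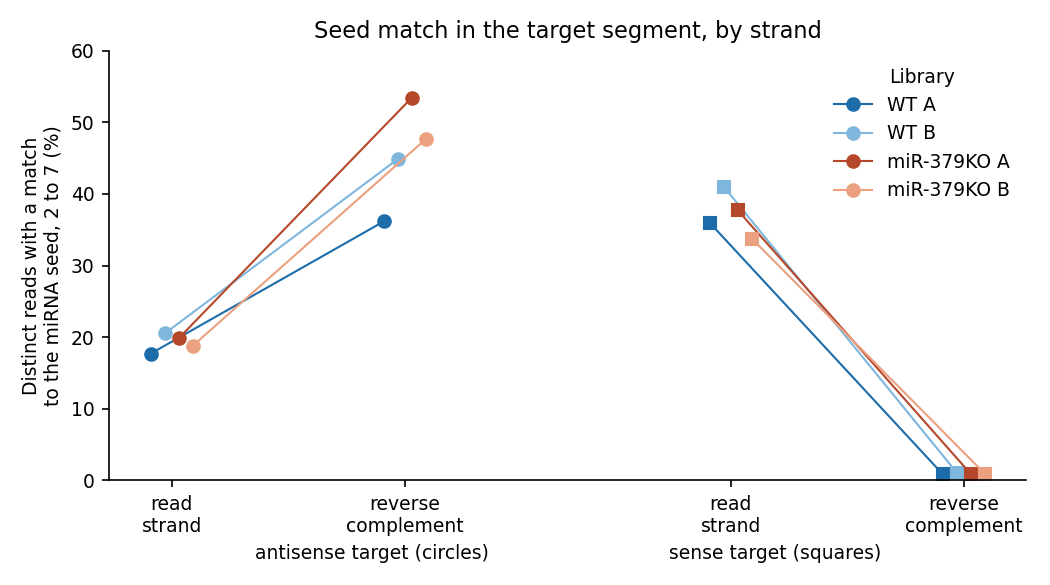
The percentage of distinct reads with a match to miRNA bases 2 to 7 in the target segment (y axis) is drawn for the read strand and its reverse complement (x axis), 1 line per library. With antisense targets all 4 lines rise, from 17.7 to 20.5% up to 36.2 to 53.4%, and with sense targets all 4 fall to about 1%.

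A match in the reverse complement means that the read carries the letters of the miRNA seed itself in its target. Stretches of 18S from chromosome 17 (GRCm38, plus strand) are shown with the miRNA bases 2 to 8 in capitals for 4 miRNAs, chosen after their values were seen.
let-7, 39846855 to 39846883: cccgacccgggGAGGTAGtgacgaaaaat
miR-2137, 39846626 to 39846654: ggggtcgggcgCCGGCGGctttggtgact
miR-770-5p, 39847560 to 39847588: ttgacggaaggGCACCACcaggagtggag
miR-214-3p, 39846820 to 39846848: tccaaggaaggCAGCAGGcgcgcaaatta
The letters were covered by 46 of 54 let-7 targets, 99 of 99 of miR-2137, 10 of 10 of miR-770-5p and 7 of 7 of miR-214-3p. Each of these motifs, searched on the plus strand, occurs at 1 position in the 1849 nt of 18S. In windows of 18S as long as the median target, it lay in 4.42% for let-7 (84 nt), 3.19% for miR-2137 (63 nt), 5.73% for miR-770-5p (106 nt) and 3.31% for miR-214-3p (65 nt). As the miRNAs were chosen for these matches, the shares are a description. In miR-2137 the letters overlap a match to the seed, CGCCGG, which occurs at 3 positions and in 9.74% of windows of 63 nt, so that both strands carry one. Of the 62 distinct let-7 reads, all without a difference from the miRNA, 48 held the seed match (bases 2 to 7) in the reverse complement and 0 in the read strand. It was in the reverse complement of 17 of 17 distinct reads of miR-3960, 13 of 16 of miR-6240 and 10 of 12 of miR-706, whose stretches are not shown. The pattern was not general, since miR-149-3p, the most frequent miRNA, held it in 1 of 204 distinct reads (0.49%). For miR-5126, whose bases 2 to 8 occur at 2 positions of 18S, 24 of 43 targets covered the letters and 33 of 43 covered a match to the seed on the read strand. let-7 reads were 4 and 31 in WT A and B, and 24 and 18 in miR-379KO A and B, and 66 of the 77 carried 18S.

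The deposited minimum free energy, whose unit is not named in the sources used here, had a median of -24.5 over the distinct reads, from -50.9 to -10.0. The median was -26.1 and -24.4 in WT A and B, and -24.4 and -23.8 in miR-379KO A and B, and it was lower than in reads with a sense target in all 4 libraries, with a difference of -1.07 ± 1.05 (SD, n = 4; exact sign permutation, two-sided p = 0.12). This did not hold under other limits, since the median was -23.48 without reads of the 18S genes, near the -23.5 of all reads with a sense target, and without a mismatch in either kind of read it was higher in 3 of 4 libraries (mean difference 4.07 ± 3.74, SD, n = 4; exact sign permutation, two-sided p = 0.25). The deposited score had a median of 140 in both kinds of read, with 70.0 and 65.0 in WT A and 140 or 142 in the other libraries. All 99 reads of miR-2137 had the same deposited energy, -23.8, while those of miR-5126 had the lowest median among the 10 most frequent miRNAs, -46.8. Recomputed with RNAduplex between the mature miRNA and the target segment, the median was -22.9 kcal/mol on the read strand and -25.0 kcal/mol on the reverse complement. The reverse complement gave the lower energy in 536 reads and the read strand in 169. In reads with a sense target the order of the strands was opposite, with -24.7 and -12.4 kcal/mol. The deposited pairing was predicted on the listed transcript, which is the reverse complement here and the read strand for sense targets. The rule therefore bears on both orders, and they are a description.
The values differed by the place of the miRNA segment. Where the segment matched a miRNA gene, the medians were -15.1 kcal/mol on the read strand and -21.6 on the reverse complement, and 133 of 151 reads were lower on the reverse complement. For segments in the 18S locus they were -24.9 and -28.7, lower on the reverse complement in all but 1 read. Segments without a match, most of them miR-2137, were the exception with -35.7 and -25.0, lower on the read strand in 114 of 138. For let-7 reads the medians were -11.4 and -20.7, for miR-3960 -15.8 and -23.9, and for miR-770-5p -27.1 and -24.2 kcal/mol.

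**Figure D5:**
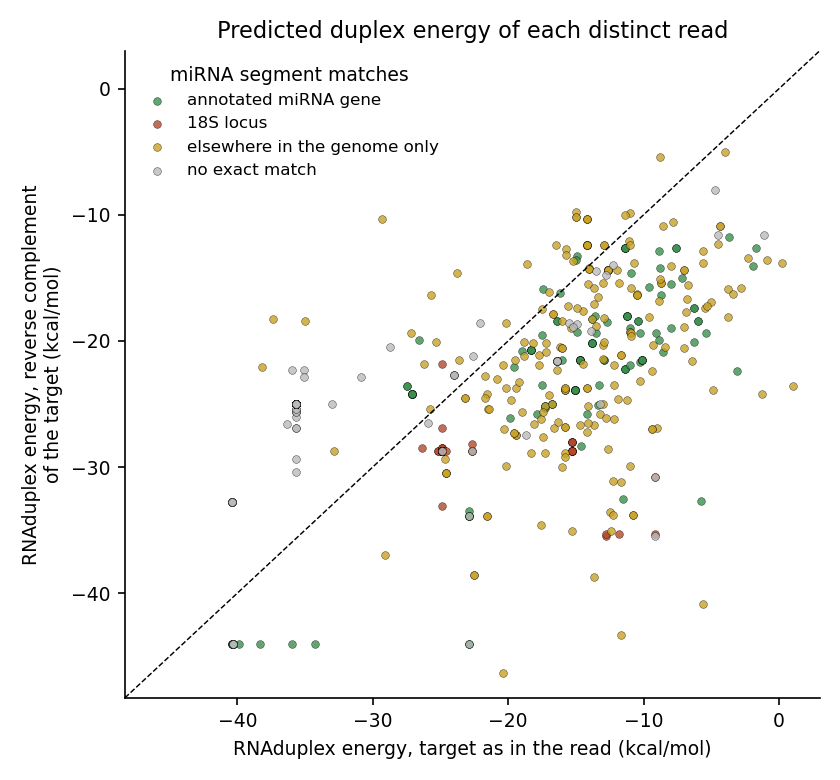
Each point is a distinct read, with the RNAduplex energy of its miRNA and target as read (x axis, kcal/mol) against that with the reverse complement of the target (y axis, kcal/mol), coloured by the place of the miRNA segment. Points below the dashed line of equality, 536 reads, are lower on the reverse complement, and the cluster near -35.7 on the x axis holds reads of miR-2137. By the rule, the reverse complement is the strand of the listed transcript, with which the deposited pairing was predicted.

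Counts of each miRNA and each gene within the classes of read were compared between WT and miR-379KO by edgeR's quasi-likelihood test over all classes, with Benjamini-Hochberg adjustment. Of 655 rows for miRNAs, 0 (0%) had an adjusted p-value under 0.05, and of 568 rows for genes 1 (0.176%) did, which was in another class of read. The antisense reads had 14 miRNAs and 3 genes with at least 10 reads, 0 of which passed, and 1 miRNA had an unadjusted p-value under 0.05. DESeq2 also called 0 of them, with 0 at an unadjusted p-value under 0.05. miR-149-3p gave a log2 difference of miR-379KO over WT of 0.04 ± 0.72 (SE; edgeR adjusted p = 0.994) and Rn18s-rs5 of 0.39 ± 0.50 (edgeR adjusted p = 0.956). let-7b-5p had the smallest p among them, with a log2 difference of 2.18 ± 1.02 (edgeR adjusted p = 0.837), from 0 and 5 reads in WT and 10 and 6 in miR-379KO. miR-1195, with 43 of 85 reads in WT A, gave -0.21 ± 0.75 (edgeR adjusted p = 0.994).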

How the data were processed

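AGO2-CLASH reads of 4 MMC libraries were analysed, grouped by genotype and letter from the labels. The authors merged read pairs, removed reads aligned by Bowtie2 2.1.0 to the genome or to GENCODE vM13 transcripts, and searched the rest on both strands against miRBase 21 and GENCODE vM13 transcripts, keeping parts that did not overlap. The deposited count is the number of merged reads of a sequence, without normalization. The deposited score and minimum free energy belong to the authors' predicted pairing, by a tool not given for these columns in the sources used here (miRanda is named there for a drawn alignment and, with mirSVR, for predicted miR-379 targets in the AGO2-IP data). Positions and sequences are other deposited values.

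Each distinct read was counted once per library, miRNA and gene. A read listed with several genes enters the row of each gene. Segments were searched without mismatch on both strands of GRCm38 (RefSeq release p6, with soft-masked bases taken as repeats). Genes at a place were taken from GENCODE vM21. A segment that matched a miRNA gene was put in that class even where it matched elsewhere, and the 18S locus came next. The miRNA genes of this step came from a separate list of hairpins, and a segment in Mir6236 of GENCODE vM21 was not placed in that class. Energies were computed with ViennaRNA 2.7.2. Intervals are 95% exact (Clopper-Pearson) intervals. Rows with at least 10 reads were tested with edgeR 4.0.16 (TMM, genotype only), with DESeq2 1.42.0 as an alternative, in R 4.3.3. Tables were handled with Python 3.11.15 and pandas 2.3.3. Steps were tested on simulated data. Alternatives changed the length, mismatch and listing limits, the seed, the energy tool, the scaling and the libraries.

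The members, lists and alternatives were chosen with earlier results of these data known. Named were the 10 miRNAs and genes with the most reads, ties by name, target groups with the most genes (up to 5), and members of the lists of let-7, miR-379 cluster, Sfmbt2 repeat and fibrosis miRNAs and of ribosomal, mitochondrial, ribosomal protein, matrix and cell type marker genes. miR-770-5p, miR-706, miR-3473b, miR-214-3p, Snord66, Gm42418 and Gm26917 were named after their values were seen.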

Additional observations from a re-analysis of the deposited data

How the results depend on the processing

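The difference in share between WT and miR-379KO, -13.0 per 10000 chimeric reads, ranged from -70.8 to 44.9 when each library was left out, turned to 44.9 without WT A and 8.25 without miR-379KO A, and was 18.5 without reads of the 18S genes, an alternative chosen after seeing the data. With the letters as a replicate block it was -13.0 (exact sign permutation, p = 1), and the block left member calls at 0. Deviations of same-lettered libraries had r = -0.06 over 655 rows, a single value for both pairs, since 2 libraries of a genotype mirror each other. What the letters mark was not settled. miRNA first (63.8%) was 58.3% at 18 nt or more, 46.3% without a mismatch, 53.1% with a single miRNA and gene, 45.2% without reads of the 18S genes and 51.6% without miRNA segments in the 18S locus. In the same order of settings, the seed match (19.0%) was 31.6%, 12.1%, 34.5%, 2.38% and 26.4%, the share of the most frequent miRNA (32.7%) was 28.2%, 15.2%, 24.6%, 38.0% and 19.2%, and recurrence across genes (49.9%) was 26.995%, 30.7%, 1.63%, 20.8% and 26.1%. The most frequent miRNA was taken anew in each setting. At 20 nt or more these 3 were 43.2%, 38.9% and 21.3%. The seed match was 15.2% without reads also listed in sense, 4.95% for bases 2 to 8 and 43.7% in the reverse complement, and the most frequent miRNA had 28.9% with each sequence counted once. The deposited energy (median -24.5) was -21.0 without a mismatch, -25.9 weighted by count, -23.5 without reads of the 18S genes and -22.9 by RNAduplex on the read strand. The comparisons with sense targets within the same limits were chosen after seeing the data. The cause of these changes was not tested. With each library left out, the ranges were 62.7 to 64.9% for order, 18.5 to 19.7% for the seed, -24.9 to -23.9 for energy, 31.8 to 33.8% for the most frequent miRNA and 48.1 to 50.7% for recurrence. The antisense reads had 0 miRNAs and 0 genes called under every alternative run. Outside them, the count of called genes (1) was 0 with DESeq2, with the block, without TMM, without a minimum count and without miR-379KO A, 2 without WT A and 6 without WT B, and the count of called miRNAs (0) was 3 without WT A. Of 97 alternative values, 63 were counted as kept. For the share between genotypes this meant the same sign only, whatever the size. For the genotype fits it meant the same count of called members, and for the remaining results a change below the SD between libraries. The 2 libraries per genotype and the 167 to 340 reads per library limit these results, and leaving a library out gives a genotype of 1 library whose spread is taken from the other.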
